A study of Mus musculus with 30 samples.

Results

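Liver cells keep neutral fat in lipid droplets, and 10 genes that build, coat, empty or fill these droplets were followed in the livers of mice fed diets that differed in iron. They were Cidea, Cideb, Cidec, Plin2, G0s2, Pnpla2, Lpin1, Lpin2, Dgat1 and Dgat2, taken as every non-control probe that the array files name for them, with Plin2 under its older name Adfp. They are 10 of the 27962 names that non-control spots carry, and they had 20 of the 41173 probes. All 20 probes passed the filter on dim signal, so all 10 genes were among the 21071 genes tested. Every probe stood well above background on each array that measured it, and none was saturated. Spots marked as outliers by the scanner software were left out, so Cidea and 1 Pnpla2 probe have no value in D2 balanced mouse 5.

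Each of 30 mice had its liver RNA measured on its own 1-colour oligonucleotide array (Agilent whole mouse genome, 4x44K). The mice were of the inbred strains C57BL/6 (B6) and DBA/2 (D2). The diets were balanced (200 mg of iron per kg), enriched (8.3 g per kg) or deficient (under 3 mg per kg), and 5 mice of each strain received each. No group carried a transgene or a drug in the labels, which do not state sex, age, feeding length, feeding state or the hour when livers were taken. Levels are log2 of quantile-normalized intensity, each difference is on that log2 scale with the standard error (SE) from limma, and adjusted p is limma's, by Benjamini-Hochberg over the 21071 genes at a threshold of 0.05. The number of mice limits the precision, and mice are numbered in accession order.

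In a hepatocyte, triglyceride is assembled at the endoplasmic reticulum, where lipins remove phosphate from phosphatidate to give diacylglycerol and the DGAT enzymes add the last fatty acid. The fat is packed into droplets coated by perilipins, and CIDE proteins help droplets fuse and grow or load fat onto lipoprotein particles. PNPLA2 (ATGL) starts the breakdown of droplet triglyceride, and G0S2 binds and inhibits it. Several of these genes are known targets of fasting signals and of the nuclear receptors PPAR alpha and PPAR gamma.

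RefSeq's promoter table (GRCm38.p6) holds 10 windows for 7 of the 10 genes: Cideb, Cidec, Plin2, G0s2, Pnpla2, Lpin1 and Lpin2. The sequences below are of the genes the results turn on: Cidec and Plin2, which rose together on the deficient diet, and Lpin1, which differed most between strains. They are reference letters, on the minus strand, with the nuclear receptor core motif AGGTCA or its reverse complement in capitals. For Cidec the 250 bases before its outer annotated start are given, chr6:113435761-113436010. For Plin2 the 92 bases outside the annotated gene are given, chr4:86670218-86670309, and for Lpin1 the motif with 10 bases on either side, chr12:16611025-16611050, which lies inside the annotated gene.
Cidec: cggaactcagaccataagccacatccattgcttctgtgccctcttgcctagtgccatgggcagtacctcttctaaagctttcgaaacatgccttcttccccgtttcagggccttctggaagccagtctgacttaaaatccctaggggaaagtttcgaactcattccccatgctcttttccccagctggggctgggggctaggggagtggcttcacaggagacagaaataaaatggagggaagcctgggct
Plin2: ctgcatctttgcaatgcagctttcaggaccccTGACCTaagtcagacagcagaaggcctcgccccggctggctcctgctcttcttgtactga
Lpin1: aagtagcttgAGGTCActtcctgtag
Over the 250 bases before each start, searched on both strands, AGGTCA was found in 2 of the 10 windows, those of Plin2 and Lpin1, and in 14% of all 32851 windows in the table. The E-box CACGTG was found in 1, a window of Lpin2, against 6.02% of all windows. The direct repeat of AGGTCA with 1 base between the copies, which contains the core motif, was found in none of the 10 and in 0.0335% of all. A match describes letters in this window only.

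On the iron-deficient diet Cidec and Plin2 rose and Dgat2 fell, averaged over the strains. Gene names stand for RNA throughout, and the arrays do not measure protein. Cidec, which encodes a droplet fusion protein, rose by 1.53 (SE 0.33), or 2.90-fold. Plin2, which encodes the main droplet coat protein of the hepatocyte, rose by 0.60 (SE 0.11), or 1.52-fold. Dgat2, whose enzyme catalyses the last step of triglyceride synthesis, fell by 0.30 (SE 0.08). Thus 3 of the 10 genes passed the test, 2 higher and 1 lower, where 8.08% of all genes passed, 3.89% higher and 4.2% lower. The median difference of the 10 genes was 0.18, against 0.0008 over all genes. The 10 genes were chosen with earlier results of these data known, so these counts are descriptions.

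Cidec stood at 14.43, 14.07, 12.79, 12.67 and 13.18 in the balanced B6 mice and at 14.95, 13.43, 14.30, 15.36 and 14.44 in the deficient ones. The B6 groups overlapped: 2 balanced mice lay above the lowest deficient mouse. In D2 it stood at 9.68, 10.57, 10.31, 9.85 and 10.09 on the balanced and at 11.53, 12.95, 12.23, 12.22 and 11.59 on the deficient diet, with no overlap. The averaged rise had an adjusted p of 0.00388 and was seen in 10 of 10 deficient mice against their strain's balanced mean. In D2 alone the rise was 2.00 (SE 0.47, adjusted p = 0.0129), or 4.01-fold. In B6 alone the estimate was 1.07 (SE 0.47, adjusted p = 0.318), which did not pass. The difference between the strains' effects, D2 minus B6, was 0.94 (SE 0.66, adjusted p = 0.858), so the effects were not shown to differ.

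Plin2 stood at 16.58, 16.67, 16.57, 16.07 and 16.58 in the balanced B6 mice and at 17.06, 16.96, 17.26, 17.24 and 16.89 in the deficient ones. In D2 the balanced mice had 16.32, 16.83, 16.77, 16.21 and 16.50 and the deficient mice 17.21, 17.04, 17.13, 17.20 and 17.12. Deficient and balanced mice did not overlap in either strain. The averaged adjusted p was 0.00142. The estimate was 0.59 in B6 (SE 0.16, adjusted p = 0.0593), which did not pass, and 0.62 in D2 (SE 0.16, adjusted p = 0.0266). Their difference was 0.03 with an interval of 2 SE from -0.43 to 0.49 (adjusted p = 0.995). The B6 estimate passed when B6 enriched mouse 1 or 5 was left out of the shared estimate of spread (adjusted p = 0.0273 and 0.0186).

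Dgat2 stood at 17.09, 16.86, 17.17, 17.07 and 17.38 in the balanced D2 mice and at 16.55, 16.79, 16.62, 16.59 and 16.85 in the deficient ones, just without overlap. The B6 values overlapped widely, at 16.60, 16.85, 16.87, 16.93 and 16.72 on the balanced and 16.29, 16.99, 16.39, 16.60 and 16.84 on the deficient diet. The fall was 0.30 averaged (adjusted p = 0.0191, 8 of 10 mice), 0.44 in D2 (SE 0.11, adjusted p = 0.0272), and in B6 the difference was -0.17 (SE 0.11, adjusted p = 0.603). All 3 Dgat2 probes gave a negative averaged difference, from -0.30 to -0.25, and 2 of them passed when probes were tested one by one.

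**Figure D1:**
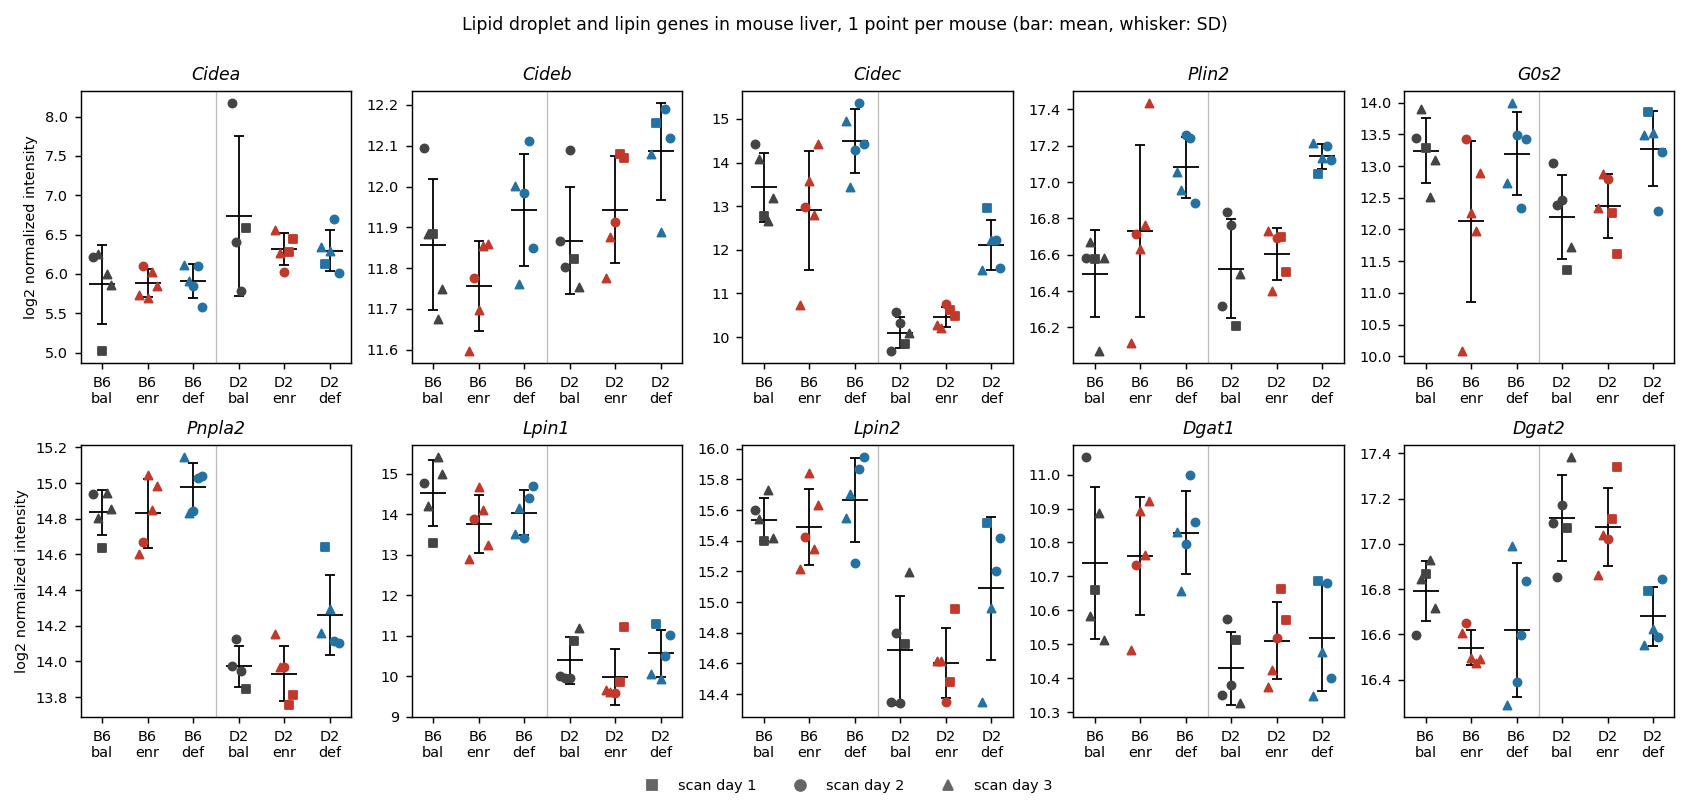
Log2 normalized intensity of the 10 genes (1 probe each, vertical scales differ) in every mouse, by strain (B6, D2) and diet (bal, balanced; enr, enriched; def, deficient), with the group mean and SD and the scan day as the symbol. Plin2 is higher in all deficient mice of each strain than in the balanced mice, and Lpin1 and Pnpla2 of D2 lie below B6 on every diet.

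The other 7 genes did not pass on the deficient diet. Pnpla2, the lipase, came closest, with 0.22 (SE 0.08, adjusted p = 0.0888), and Cideb, which helps lipidate VLDL in hepatocytes, followed with 0.15 (SE 0.06, adjusted p = 0.141). G0s2, the inhibitor of Pnpla2, had 0.51 (SE 0.32, adjusted p = 0.387). Its estimates were 1.08 in D2 (SE 0.45, adjusted p = 0.196) and -0.05 in B6 (SE 0.45, adjusted p = 0.984), and their difference was 1.12 (SE 0.64, adjusted p = 0.771). Lpin1 had -0.16 (SE 0.29), with -0.31 without B6 balanced mouse 3, -0.05 without B6 balanced mouse 4 and -0.53 with slide as a block. Dgat1 had 0.09 (SE 0.07). Cidea had -0.20 (SE 0.20), with -0.36 without D2 balanced mouse 3 and 0.04 without D2 balanced mouse 1. Lpin2 had 0.27 (SE 0.13, adjusted p = 0.248) at the probe that stood for it. A different Lpin2 probe, A_51_P370438, rose by 0.68 (SE 0.14, adjusted p = 0.00358 over all probes), so the lipin 2 result differs by probe.

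Within one strain, 3 genes passed in D2 (Cidec, Plin2 and Dgat2, where 4.68% of all genes passed) and none in B6, where 1.79% passed and where 2 of the 10 had an unadjusted p under 0.05 in limma. In D2, 7 of the 10 had an unadjusted p under 0.05, against 17.7% of all genes, and in B6 the share of all genes was 12.6%. The D2 calls of Plin2 and Dgat2 lay near the threshold, and their estimates moved little when 1 mouse was left out. Plin2 in D2 no longer passed without D2 balanced mouse 1, 4 or 5 or D2 deficient mouse 1, 3 or 4 (0.54 to 0.62, adjusted p from 0.0545 to 0.0754). Dgat2 in D2 no longer passed without D2 balanced mouse 3 or 5 or D2 deficient mouse 1, 3 or 4 (-0.42 to -0.37, adjusted p from 0.0561 to 0.0955). The averaged changes of all 3 genes passed without any 1 of the 30 mice, with Cidec between 1.43 and 1.67, Plin2 between 0.55 and 0.64 and Dgat2 between -0.35 and -0.26.

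Arrays were scanned on 3 days, with 5, 11 and 14 arrays, spread unevenly over the groups. With scan day as a block the averaged change was 1.52 for Cidec (SE 0.34, adjusted p = 0.00475), 0.59 for Plin2 (SE 0.12, adjusted p = 0.00201) and -0.29 for Dgat2 (SE 0.08, adjusted p = 0.0232). Within scan day 2, with 1 B6 balanced mouse, the values were 0.99, 0.53 and -0.16. Within scan day 3, with 1 D2 balanced mouse, they were 1.33, 0.62 and -0.49. None of them passed the threshold, and the reason was not tested. Scan day 1 held no B6 deficient array and gives no averaged value.

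**Figure D2:**
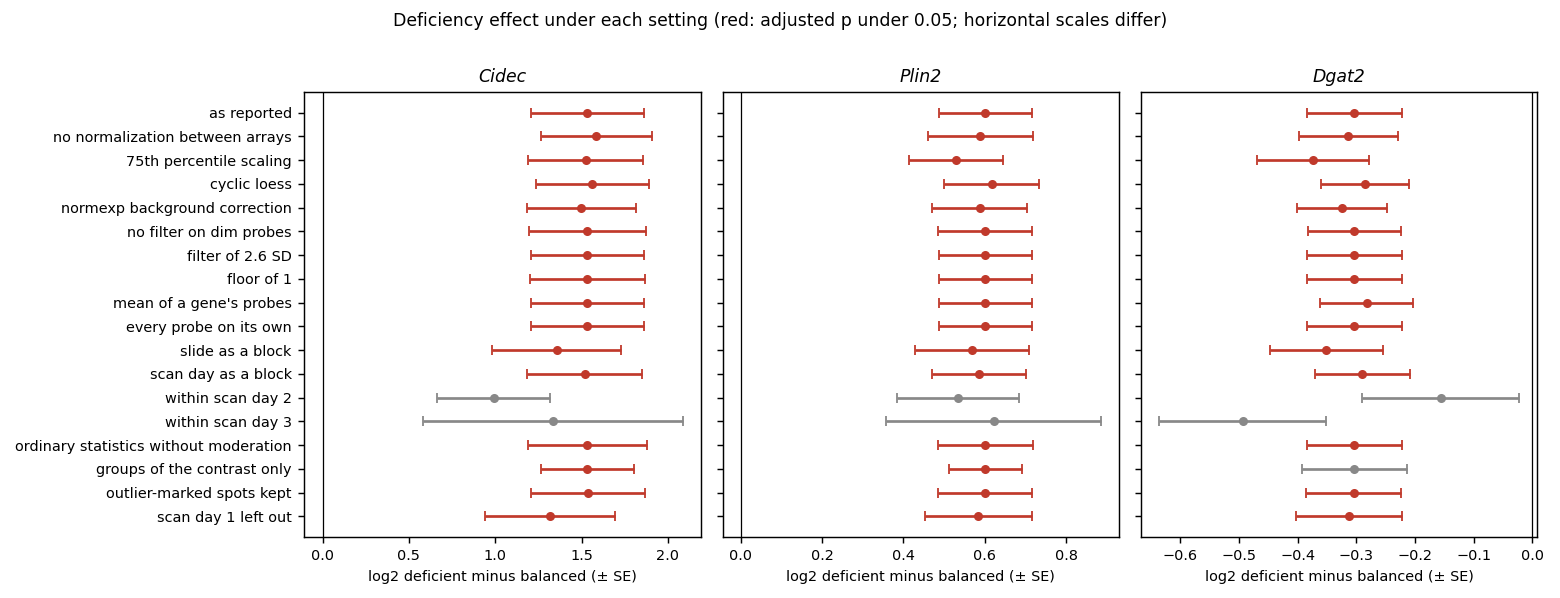
Log2 difference, deficient minus balanced averaged over strains, with its SE for Cidec, Plin2 and Dgat2 under each processing setting (rows), red where the adjusted p was under 0.05. The sign is the same in every row, and the grey points include both scan-day subsets for each gene and, for Dgat2, the fit on the contrast's groups only.

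Genes that share the droplet, fasting or lipid pathways were read from lists written from general knowledge. The lists were chosen with earlier results of these data known, so their counts are descriptions and not independent support. Of 22 fasting and PPAR alpha targets, 11 rose on the deficient diet and none fell, with a median of 0.27. Of all genes 3.89% rose and 4.2% fell past the threshold. Pdk4, a kinase that spares glucose, rose by 1.40 (SE 0.18), Ehhadh of peroxisomal beta-oxidation by 0.82 (SE 0.13) and the fatty acid hydroxylase Cyp4a10 by 0.44 (SE 0.08). Of 19 tested genes of glycerolipid synthesis, 6 rose and 1 fell. They included Plpp1, a lipid phosphatase (0.50), the glycerol kinase gene Gk (0.48) and the acyl-CoA synthetases Acsl3 (0.84) and Acsl5 (0.33). The gene that fell was Mogat1, at -0.41, named after its value was seen, and the median of the list was 0.05.

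Of 14 other droplet coat and formation genes, 2 rose and 1 fell on the deficient diet, where 3.89% of all genes rose and 4.2% fell. Hilpda, a droplet protein that inhibits Pnpla2, rose by 0.58 (SE 0.14) and Fitm2, which partitions fat into droplets, by 0.32 (SE 0.07). The droplet enzyme gene Hsd17b13 had -0.25 (SE 0.06). Among the perilipins, Plin4 had 0.67 (adjusted p = 0.0742) and Plin5 0.37 (adjusted p = 0.103), which did not pass and are named after their values were seen. Of 12 tested hydrolysis genes, 3 rose (Abhd6, 0.39; Lipa, the lysosomal lipase, 0.49; and Hilpda, which is on both lists) and 1 fell (Abhd5, the activator of Pnpla2, -0.22). Of 8 genes of VLDL assembly, Mttp, which loads fat onto apolipoprotein B, rose by 0.34 and Apoc3 fell by 0.25. Of 16 regulators none passed. The median of these 4 lists was -0.02, -0.02, 0.05 and -0.06 in the order given.

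Adipose tissue also expresses several of the 10 genes, and its markers were read beside them. Lep was above background on 0 arrays, Plin1 on 14, Retn and Cfd on 16 each and Adipoq on 24. The summed signal of the 7 tested adipocyte markers, out of 8, ran from 3732 to 7407 (median 4363) in B6 balanced, 3286 to 7168 (median 4014) in B6 enriched and 7547 to 9518 (median 8335) in B6 deficient livers. In D2 it ran from 3653 to 5594 (median 4094), 3376 to 3867 (median 3553) and 6034 to 7250 (median 6776) on the same diets. Fabp4 made up 61.9% to 96.4% of this sum (median 89.9%). Without Fabp4 the B6 medians were 419 (balanced), 390 (enriched) and 341 (deficient), and the D2 medians 515, 543 and 507. B6 balanced mouse 1 and B6 enriched mouse 2 stood apart, with sums of 2561 and 2731 without Fabp4, Cfd at 10.83 and 10.97 and Adipoq at 8.02 in each. In D2 the highest sum without Fabp4 was that of D2 balanced mouse 4 (868), with Cfd at 8.09 and Adipoq at 6.75. Without B6 balanced mouse 1, which has the highest Cidec value of its group, the averaged change on the deficient diet was 1.66 for Cidec (adjusted p = 0.00223), 0.61 for Plin2 (adjusted p = 0.00198) and -0.33 for Dgat2 (adjusted p = 0.0135). Of the 7 markers, 1 passed on the deficient diet: Fabp4, a fatty acid binding protein also made by macrophages and endothelium, rose by 0.87 (adjusted p = 7.16e-08). Adipoq, Cfd and Plin1 had estimates below 0 there: -1.13 (adjusted p = 0.156), -0.88 (adjusted p = 0.624) and -0.32 (adjusted p = 0.551). Many of their values lay at the floor set for low signal (3.80). These estimates include B6 balanced mouse 1, which was also high in Plin1 (5.81). On the deficient diet endothelial markers rose in 2 of 5, stellate cell markers in 1 of 6 (Reln, 0.51) and macrophage markers in 0 of 7. Of 3 tested pancreas markers 1 fell (Cela1, -0.64), and 0 of 4 tested cholangiocyte markers passed. Of all genes 3.89% rose and 4.2% fell. The 6 tested hepatocyte markers, of 7, stood above background on 30 arrays, and 0 of them passed. Of 14 clock genes, 1 rose on the deficient diet (Arntl, 0.84) and 3 fell (Nr1d2, -0.43; Dbp, -0.88; Ciart, -1.67). In bulk liver, fewer cells of a type and less RNA per cell cannot be told apart, and the part that these cell types or the clock have in the changes of Cidec, Plin2 and Dgat2 was not tested.

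The iron-enriched diet moved none of the 10 genes past the threshold, averaged over the strains or within either. All genes passed at 2.23% averaged, 5.83% in B6 and 0.0902% in D2. In limma's fit, 1 of the 10 genes had an unadjusted p under 0.05 averaged over strains, 2 in B6 and 0 in D2, against 13.8%, 17.7% and 5.5% of all genes. The same fit without moderated variances also called 0 in each. Lpin1 had the lowest averaged p, with -0.59 (SE 0.29, adjusted p = 0.361). Cidec had -0.08 with an interval from -0.74 to 0.58, and Plin2 had 0.16 with an interval from -0.07 to 0.39.

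G0s2 had the lowest adjusted p in B6, -1.12 (SE 0.45, adjusted p = 0.171). Its values were 13.45, 13.89, 13.28, 12.50 and 13.09 on the balanced and 10.08, 13.43, 12.27, 11.97 and 12.89 on the enriched diet. B6 enriched mouse 1 lay far below its group in G0s2 and also in Cidec, where it had 10.74 and the other 4 mice 12.79 to 14.42. Without that mouse the G0s2 estimate was -0.61 (adjusted p = 0.473) and the Cidec estimate in B6 moved from -0.52 to 0.02. Without B6 enriched mouse 2, which stood apart in adipocyte markers, the G0s2 estimate was -1.44 (adjusted p = 0.0652). In D2 the G0s2 estimate was 0.18 (SE 0.45, adjusted p = 1), and the difference between the strains' enrichment effects was 1.29 (SE 0.64, adjusted p = 0.439), or 0.78 without B6 enriched mouse 1. Dgat2 in B6 was -0.25 (SE 0.11, adjusted p = 0.244), lower in 5 of 5 mice than the balanced mean.

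No gene of the 10 showed a diet effect that differed between strains. The difference of the enrichment effect passed for 0 of 10 (1.11% of all genes) and that of the deficiency effect for 0 of 10 (0.019% of all genes), with 0 at an unadjusted p under 0.05 in either by limma, and 0 adjusted calls without moderated variances. Of the wider lists on the enriched diet, Hsd17b13 rose by 0.32 and Apoc3 by 0.36, beside falls of 0.25 each on the deficient diet, a comparison that shares the balanced mice. The carboxylesterase Ces1g rose by 0.73, while Abhd5 fell by 0.24 and Acsl1, an acyl-CoA synthetase, fell by 0.20. None of the 22 fasting targets passed (median -0.0022), none of the 16 regulators passed (median -0.07), and 1 clock gene, Nr1d2, fell. Of all genes 2.23% passed on the enriched diet, averaged over strains. In B6 alone, 1 of the 14 clock genes rose and 4 fell, where 5.83% of all genes passed. There 1 fasting target rose and 1 fell, and 1 regulator fell. In D2 alone, 0 genes of these 3 lists passed, where 0.0902% of all genes did. The part of the clock in the B6 estimates was not tested.

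**Figure D3:**
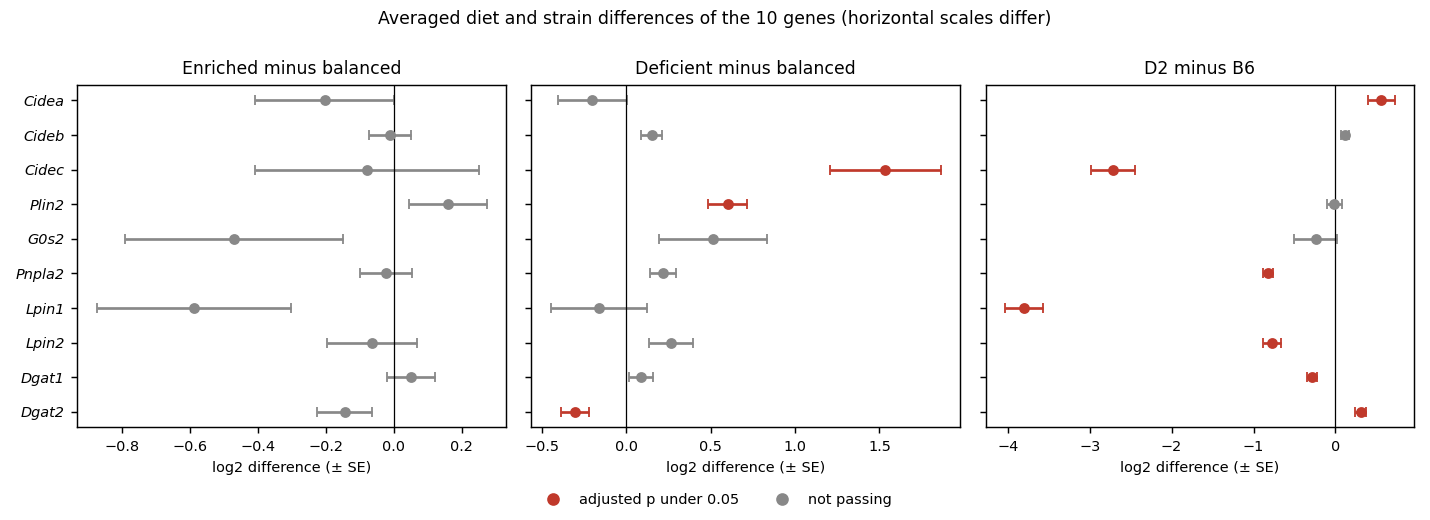
Log2 differences with SE for the 10 genes: enriched minus balanced and deficient minus balanced, each averaged over strains, and D2 minus B6 averaged over diets, red where the adjusted p was under 0.05. None passed with enrichment, 3 passed with deficiency and 7 passed between strains, where the Lpin1 and Cidec differences reach -3.80 and -2.72.

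Between the strains 7 of the 10 genes differed, averaged over diets: 5 were lower in D2 and 2 higher. For comparison, 50.1% of all genes differed between strains, 24.2% lower and 25.9% higher. Lpin1, Cidec, Pnpla2, Lpin2 and Dgat1 were lower and Dgat2 and Cidea were higher. The median was -0.26, against -0.01 over all genes. On single diets 7 genes passed on the balanced (30.1% of all genes), 5 on the enriched (35.5%) and 5 on the deficient diet (28.4%).

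Lpin1, a phosphatidate phosphatase that also acts as a coactivator of PPAR alpha, was 13.9-fold lower in D2 (-3.80, SE 0.23, adjusted p = 1.29e-13). Over the 15 B6 mice it ran from 12.89 to 15.41 with a median of 14.16, and over the 15 D2 mice from 9.59 to 11.28 with a median of 10.0004. The strains did not overlap on any diet. The difference was -4.14 on the balanced, -3.78 on the enriched and -3.48 on the deficient diet. All 4 Lpin1 probes showed it, with -3.80, -5.26, -4.56 and -4.29. It was -4.16 within scan day 2 and -3.88 within scan day 3.

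Lpin2, a second phosphatidate phosphatase abundant in liver, was lower in D2 by 0.77 (SE 0.11, adjusted p = 8.42e-07) at its brightest probe, but its 4 probes, each tied by the files to its own transcript record, disagreed. The brightest, A_51_P256323, ran from 15.22 to 15.95 in B6 and from 14.34 to 15.52 in D2. Probe A_51_P370438 gave -1.0025 (SE 0.12, adjusted p = 3.71e-08) and A_51_P483081 gave -0.04 (SE 0.20, adjusted p = 0.901). Probe A_52_P397786 gave 1.97 (SE 0.20, adjusted p = 3.56e-09), higher in D2. At that probe B6 ran from 5.91 to 8.17 and D2 from 8.06 to 9.83, so a direction for Lpin2 as a gene holds only for the probes named. Whether D2 bases differ from the probe sequences was not tested for any gene.

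**Figure D4:**
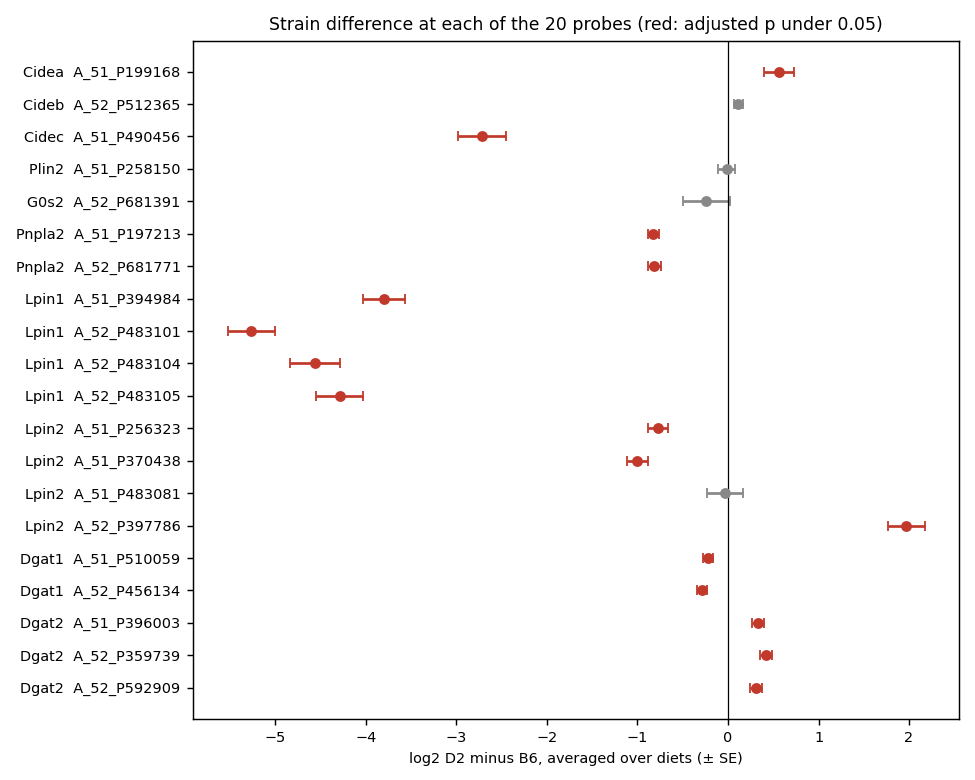
Log2 difference D2 minus B6, averaged over diets, with its SE at each of the 20 probes, red where the adjusted p over all probes was under 0.05. The 4 Lpin1 probes all lie at -3.80 or lower, whereas the 4 Lpin2 probes run from -1.0025 to 1.97.

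Cidec was 6.59-fold lower in D2 (-2.72, SE 0.27, adjusted p = 1.99e-09). Group means rose from 10.10 ± 0.36 (SD, n = 5) in D2 balanced through 10.47 ± 0.23 in D2 enriched and 12.10 ± 0.58 in D2 deficient to 12.91 ± 1.36 in B6 enriched, 13.43 ± 0.79 in B6 balanced and 14.50 ± 0.73 in B6 deficient livers. Among neighbours in that order, D2 balanced and enriched (0.37, adjusted p = 1) B6 enriched and balanced (-0.52, adjusted p = 0.658) and B6 balanced and deficient (1.07, adjusted p = 0.318) did not differ past the threshold, and the other neighbouring pairs were not tested. Every D2 group lay below B6 on the same diet, and the strains overlapped only on the enriched diet, through B6 enriched mouse 1. On the deficient diet the strain difference was -2.39 (SE 0.47, adjusted p = 0.000233), against -3.33 on the balanced diet (SE 0.47, adjusted p = 2.71e-06).

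The other CIDE genes moved less. Cidea, best known from brown fat and fatty liver, was dim and higher in D2 by 0.56 (SE 0.17, adjusted p = 0.00601). It ran from 5.02 to 6.26 over 15 B6 mice and from 5.78 to 8.17 over 14 D2 mice. The top value, 8.17, was D2 balanced mouse 1, and the lowest, 5.02, was B6 balanced mouse 3. On the balanced diet Cidea passed with 0.86 (SE 0.30, adjusted p = 0.0284). Without D2 balanced mouse 1 it had 0.39 (adjusted p = 0.215), and without B6 balanced mouse 3 it had 0.65 (adjusted p = 0.0951). Ucp1, the defining brown fat marker, was above background on 2 of 30 arrays, those of the same pair of mice. The other genes listed as brown fat markers, Elovl3 and Cox7a1, were above background on all 30 arrays, also where Ucp1 was not. Of these, Elovl3 was higher in D2 by 0.82 (adjusted p = 0.0152) and Cox7a1 lower by 0.81 (adjusted p = 3.06e-08). The part of these markers in the Cidea values was not tested. Across diets the Cidea call was lost without normalization between arrays (0.27, adjusted p = 0.19), where the median of all genes was -0.17, with 75th percentile scaling (0.38, adjusted p = 0.0558) and within scan day 2 (0.34, adjusted p = 0.66). On the enriched diet Cidea had 0.43 (adjusted p = 0.253) but passed with slide as a block (0.70, adjusted p = 0.0311), within scan day 3 (0.58, adjusted p = 0.0134) and with the groups of the contrast only (adjusted p = 0.016). Cideb differed by 0.11 (SE 0.05, adjusted p = 0.063) and did not pass, though it did with cyclic loess (adjusted p = 0.0413), with 75th percentile scaling (adjusted p = 0.0262) and without any 1 of 5 mice: B6 balanced 1, B6 deficient 4, D2 balanced 5, D2 enriched 1 or D2 deficient 3.

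Of the lipase and its inhibitor, only the lipase passed between strains. Pnpla2 was lower in D2 by 0.83 (SE 0.06, adjusted p = 1.74e-11), or 1.77-fold. It ran from 14.60 to 15.15 in B6 and from 13.76 to 14.64 in 14 D2 mice, without overlap on any diet. Its other probe, A_52_P681771, gave -0.81, and there the strains overlapped on the deficient diet (B6 lowest 12.06, D2 highest 12.15). G0s2 had -0.24 (SE 0.26, adjusted p = 0.472) with an interval from -0.76 to 0.28. On the balanced diet alone G0s2 had -1.05 (SE 0.45, adjusted p = 0.0855), and it passed there without B6 enriched mouse 1 (adjusted p = 0.0299) or D2 balanced mouse 1 (adjusted p = 0.0489). Plin2 had -0.01 (SE 0.09, adjusted p = 0.925), with an interval from -0.20 to 0.17.

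The DGAT genes went opposite ways. Dgat1 was lower in D2 by 0.29 (SE 0.06, adjusted p = 0.000136) in 15 of 15 mice against the B6 mean, though the strains overlapped on every diet (10.48 to 11.05 in B6, 10.33 to 10.69 in D2). On the enriched diet Dgat1 had -0.25 (adjusted p = 0.0559) and passed with slide (-0.32, adjusted p = 0.0284) or scan day (-0.31, adjusted p = 0.013) as a block, with normexp correction (adjusted p = 0.0409), without normalization (adjusted p = 0.000502) and without scan day 1 (adjusted p = 0.0478). Dgat2 was higher in D2 by 0.31 (SE 0.07, adjusted p = 0.000332), with 0.32 on the balanced, 0.53 on the enriched and 0.06 on the deficient diet (adjusted p = 0.0328, 0.000541 and 0.775). The balanced-diet call of Dgat2 was lost without B6 balanced mouse 1 or 5 or D2 balanced mouse 3 or 5, and that of Dgat1 without B6 balanced mouse 1 or 4. On the deficient diet Dgat1 no longer passed without B6 deficient mouse 4 or D2 deficient mouse 1 or 5, and Lpin2 without B6 deficient mouse 4 or 5 or D2 deficient mouse 1.

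Clock genes also differed between strains, and the labels do not state the hour when livers were taken. Of 14 clock genes 9 were higher and 4 lower in D2, where 25.9% of all genes were higher and 24.2% lower. Dbp, a clock output, was higher by 4.18 (SE 0.21) and Per3 by 3.89 (SE 0.25), and Arntl was lower by 2.73 (SE 0.20) and Clock by 0.79 (SE 0.07). Dbp ran from 10.84 to 14.07 in the B6 balanced and from 15.53 to 16.21 in the D2 balanced mice. All 7 macrophage and all 5 endothelial markers were lower in D2, where 24.2% of all genes were. Of 6 tested hepatocyte markers 2 were higher and 3 lower, of 7 adipocyte markers 2 higher and 1 lower, of 6 stellate cell markers 1 higher and 2 lower, and of 4 cholangiocyte markers 2 lower. The part that the clock or these cells have in the strain differences of Lpin1, Cidec and the other genes was not tested.

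Each of the wider lists held genes that passed in either direction between strains. Of all genes 25.9% were higher in D2 and 24.2% lower. Of 14 coat and formation genes 4 were higher (among them Hsd17b11, 0.82, and Plin3, 0.53) and 5 lower (among them Plin5, -1.49, and Fitm2, -0.74) in D2. Of 12 tested hydrolysis genes 6 were higher (Pnpla3, 1.02; Lipe, the hormone-sensitive lipase, 0.46; Abhd5, 0.25) and 3 lower (Abhd6, -0.33). Of 19 glycerolipid synthesis genes 5 were higher (Mogat2, 2.06; Gpat3, 0.90) and 6 lower (Plpp1, -0.69; Agpat5, -0.53). Of 8 genes of VLDL assembly, Mttp (0.44) and Surf4 (0.11) were higher and Apoc3 (-0.24) lower. Of 16 regulators 8 were higher, with Srebf1, the driver of fat synthesis genes, at 1.58 and Ppara at 1.38, and 5 were lower, with Hnf4a at -0.57 and the oxysterol receptor gene Nr1h3 at -0.53. Of 22 fasting targets 6 were higher and 9 lower, and Pdk4 (-2.53), Igfbp1 (-1.79) and Slc25a20 (-0.39) were among the lower.

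Mouse by mouse, some of the 10 genes varied together within groups. After the group means were subtracted, Lpin1 and Lpin2 had a Pearson correlation of 0.70 over the 30 arrays, Cidec and Plin2 also 0.70, and Cidec and Dgat1 0.67. The genes most like Cidec in this measure were Cgref1 (0.89), Tmem120a (0.88) and Pqbp1 (0.88), and those most like Plin2 were Chrna2 (0.81), Rab30 (0.80) and Elovl5 (0.79). Lpin1 varied most like Susd6 (0.87), Fam107a (0.85) and Rhbdd2 (0.84), and G0s2 like Inhbe (0.86), Zbtb37 (0.78) and Gyk (0.77). Such values are descriptions: genes on 1 array share its RNA, slide and scan day.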

How the data were processed

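Liver RNA of 30 mice was read on 30 1-colour arrays, 1 per mouse. Per the file headers, the authors' scanner files came from Agilent Feature Extraction 9.1.3.1, and the deposited processed signal is a background-subtracted intensity with no normalization between arrays. The labels name another version of that software. The deposited value table holds the same intensity (largest difference 0).

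Control spots (1639 per array) and outlier-marked spots were left out of the 43379 gene spots per array, spots of a probe were averaged, and intensity was quantile normalized, raised to a floor of 13.9 and put on the log2 scale. The filter kept probes that stood well above background on at least 3 arrays of each strain and had values in at least 3 mice of every group (29986 of 41173 probes). Of the probes of a gene, the brightest stood for it (21071 genes). Names came from RefSeq (22950 probes by accession, 6659 by symbol) and otherwise from the file (11564). The files name no genome build. Promoter letters are RefSeq's. Between 63.1% and 78.8% of gene spots per array stood well above background.

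One fit in limma 3.58.1 (R 4.3.3; Python 3.11.15) of 6 group means gave 12 contrasts, with Benjamini-Hochberg adjustment. The series' own moderated analysis of variance was not run. An alternative used the same fit without moderated variances. The fit was tested on simulated data. Named are all 10 genes, up to 4 genes per list with the smallest adjusted p, and the 3 most alike genes; 1 listed gene is not reported here. Intervals are 2 SE either way. Members, lists and settings were chosen with earlier results of these data known. Alternatives were other normalizations, background correction, filters, floors, probe rules, batch terms, subsets and leaving out each mouse. Of the listed pathway genes 3 (Ces3a, Gpat2 and Lclat1) did not pass the filter.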

Additional observations from a re-analysis of the deposited data

Results flagged for a closer look

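Of 60 groups of mice tested (10 genes in 6 groups), 2 held a mouse far from the others by Dixon's test, and chance gives about 1 in 20. Plin2 in B6 balanced mouse 4 was 16.0706 on the log2 scale, with the nearest mouse of its group at 16.57. Without that mouse the Plin2 rise with iron deficiency averaged over strains was 0.55 and still passed in limma. Lpin1 in D2 enriched mouse 5 was 11.2156, with the nearest mouse at 9.86. Without that mouse the strain difference of Lpin1 averaged over diets was -3.90, against -3.80 with it.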

How the results depend on the processing

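No paired analysis was possible because the replicate numbers follow accession order and pair no mice. Of 10 genes, the number past the threshold for deficiency averaged over strains was 3, and 0 within scan days 2 and 3, where 12 and 1519 of all 21071 genes passed against 1703 in all arrays. In D2 alone it was 3, and 0 within scan days 1, 2 and 3 (0, 3 and 1552 of all genes against 986) and, as an alternative chosen after seeing the data, 0 with the arrays of scan day 1 left out (489 genes). Between strains on the balanced diet it was 7, and 0, 3 and 1 within scan days 1, 2 and 3 (0, 2460 and 4388 genes against 6337) and 4 with the groups of the contrast only. Each of these scan-day subsets on the balanced diet has an arm of 1 mouse, assumed to vary like the others. The fit on the groups of the contrast only kept all 5 mice of each strain. The scan day 1 subsets in D2 have 1 balanced and 1 deficient mouse, so their counts of 0 say nothing about stability. On the enriched diet it was 5, with 2 within scan day 2 (1 mouse per strain) and 7 with slide as a block, and on the deficient diet it was 5, with 3 within scan days 2 and 3. Leaving out each mouse gave 0 to 1 (deficiency in B6), 1 to 3 (deficiency in D2) and, between strains, 5 to 8 (balanced), 5 to 6 (enriched), 3 to 5 (deficient) and 7 to 8 (averaged over diets). The counts of 0 for enrichment and for differences between strains' diet effects were 0 in every setting run.

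The mean of its 4 probes turned Lpin2 between strains to 0.0399 averaged, 0.1112 on the balanced and 0.0594 on the deficient diet, since those probes disagree in sign. Dgat2 with deficiency no longer passed with the groups of the contrast only (-0.30, adjusted p = 0.0536). Plin2 in D2 no longer passed without normalization (0.53, adjusted p = 0.137), with 75th percentile scaling (0.52, adjusted p = 0.0612) or with slide as a block (0.65, adjusted p = 0.0515), and Cidec in D2 not without scan day 1 (1.73, adjusted p = 0.0969). The causes were not tested. Without normalization, 69.5% of genes called with deficiency were higher (48.1% as reported), 24.8% with enrichment (54.6% as reported) and 28.6% between strains (51.7% as reported). All 20 probes stood above background on every array that measured them.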
